A study of Mus musculus with 18 samples.

Results

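Gene expression was compared between Pitx1 knockout (KO) and wild-type (WT) mouse embryos at embryonic day 9.5 (E9.5), in the hindlimb field and the trunk next to it. The members are the 6 libraries of that stage, 3 KO and 3 WT, of 18 libraries in the series, and all genes of the E9.5 table. KO embryos are labelled as knockout for Pitx1 and WT embryos as wild type, and both are of strain C57BL/6. Neither the exons removed by the allele nor the embryos or litters behind each replicate are stated, so p-values measure no more than the spread from library to library, some of which may be technical. The hindlimb of E11.5 embryos, with 3 KO and 3 WT libraries of the same strain and genotypes, served as the later stage for comparison, and levels in the E12.5 hindlimb (3 KO and 3 WT libraries) are given for some genes.

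Pitx1 is a homeodomain transcription factor of the paired-like class that is made in the hindlimb and not in the forelimb. It binds DNA motifs of the bicoid type and promotes Tbx4, a T-box gene of the hindlimb. In the mouse the hindlimb field arises in the lateral plate mesoderm, where Isl1 acts early and Fgf10 then starts outgrowth. Mice without Pitx1 form a hindlimb that is reduced and has lost part of its hindlimb identity.

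Of 23917 genes with an estimate in every E9.5 library, 13798 had enough fragments for a test. After adjustment for the number of genes, 3 differed between KO and WT (adjusted p under 0.05, edgeR's quasi-likelihood test), which is 0.0217% of those tested. All 3 were lower in KO, and all 3 lie on chromosome 13, as Pitx1 itself does. They were Pitx1, the zinc finger gene Zfp429 and Gpr137b-ps, a pseudogene of the lysosomal membrane protein gene Gpr137b. Before adjustment 567 genes had p under 0.05, or 4.11%, of which 269 were higher in KO (1.95%) and 298 lower (2.16%). The genotypes did not overlap in RPKM (the authors' fragment level per kilobase and library size) for 1282 genes, or 9.29%. Of these 649 were higher in KO (4.7%) and 633 lower (4.59%). Fold changes were positive for 48.2% of genes and negative for 51.8%, with a median log2 fold change of -0.0063. These shares are the background against which the gene groups below are read.

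KO libraries held 14433301 to 18648021 fragments and WT libraries 20673065 to 40020110, so KO was sequenced less deeply. By Pearson's r over log2 CPM, KO replicate 2 and WT replicate 3 were each closer to the other (r = 0.987) than to any library of their own genotype (r at most 0.980 for KO replicate 2 and 0.972 for WT replicate 3). Among KO libraries replicates 1 and 3 were the closest pair (r = 0.987), while the 3 WT libraries were about equally far from one another (r = 0.972 to 0.973). WT replicates 1 and 2 were also closer to every KO library than to any other WT library. Their r with the KO libraries was 0.974 to 0.976 for WT replicate 1 and 0.975 to 0.983 for WT replicate 2. The deviations of KO replicate 2 and WT replicate 3 from their genotype means had a correlation of 0.463 over the 13798 genes, as a description of libraries that share no genotype. Xist, the RNA of the inactive X chromosome, lay at or under 0.156 RPKM in all 6 libraries. Ddx3y, a gene of the Y chromosome, averaged 10.6 ± 1.49 RPKM in KO and 12.53 ± 0.763 RPKM in WT (SD, n = 3 each).

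Pitx1 measured 24.1, 25.05 and 18.3 RPKM in KO, against 48.5, 57.1 and 58.8 RPKM in WT. Every KO library lay at less than the lowest WT library, and the KO mean was 41.1% of the WT mean. The log2 fold change was -1.29 ± 0.13 (SE, n = 3 each, adjusted p = 0.0229, edgeR). Zfp429, a gene of the large zinc finger family, had 2, 0 and 0 fragments in KO, against 284 in the 3 WT libraries together, each with at least 82. In levels that was 0.0537, 0 and 0 RPKM in KO and 1.47, 2.003 and 1.82 RPKM in WT (adjusted p = 0.0353, edgeR). Relative to all fragments of each genotype, WT exceeded KO by 83.7 times (exact 95% interval 22.9 to 694, for counting error alone). Gpr137b-ps measured 0.646, 0.496 and 0.575 RPKM in KO and 2.88, 4.50 and 3.61 RPKM in WT, with a log2 fold change of -2.67 ± 0.26 (SE, n = 3 each, adjusted p = 0.0229, edgeR). Leaving out any 1 of the 6 libraries ended the calls of Zfp429 (adjusted p = 0.0638 to 0.155, edgeR) and of Gpr137b-ps (adjusted p = 0.0502 to 0.153, edgeR). Pitx1 kept its call only without KO replicate 2 (adjusted p = 0.0382, edgeR), and without any other 1 library its adjusted p was 0.0711 to 0.155 (edgeR).

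**Figure D1:**
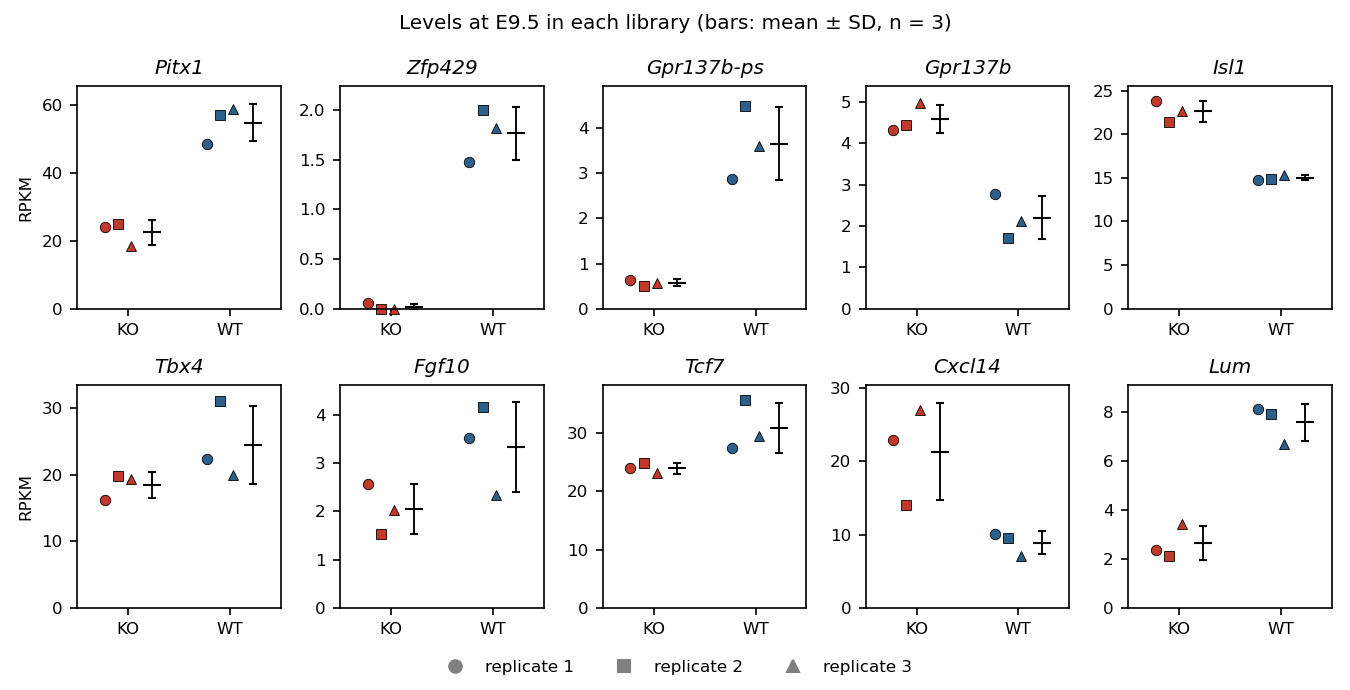
Level of 10 genes in RPKM (vertical axes, from 0) in each E9.5 library, with KO left of WT in each panel. Symbols mark the replicate and bars the mean ± SD of 3 libraries. Fgf10 is the gene of the 10 in which the genotypes overlap: KO reaches 2.56 RPKM and WT comes down to 2.33 RPKM.

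Gpr137b, the coding gene, had a fold change of the opposite sign. It measured 4.33, 4.44 and 4.97 RPKM in KO and 2.77, 1.72 and 2.12 RPKM in WT, and the genotypes did not overlap. Its log2 fold change of 1.04 ± 0.21 did not pass (SE, adjusted p = 0.636, edgeR) but did with DESeq2 (adjusted p = 0.0106). Transcripts of the pair share sequence: 29.5% of the 50-base words of Gpr137b-ps also occur in another gene, nearly all of them in Gpr137b. Summed over the pair, fragments scaled to library size as CPM were 15.1, 14.7 and 16.9 in KO and 16.6, 18.5 and 16.8 in WT. The sums overlapped between the genotypes, while the split between the genes did not. How the authors assigned fragments that match both genes is not given in the sources used here, so both values are uncertain. Of the words of Zfp429 25% occur in other genes, most often in its neighbour family member Rsl1, so its level is uncertain in the same way.

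Of 16 genes known to set up the hindlimb field, all of them tested, only Pitx1 passed. Fold changes were positive for 8 and negative for 8, with a median log2 fold change of 0.018. The genotypes did not overlap for 4 that were higher in KO and 3 that were lower, against 4.7% and 4.59% of all genes tested.

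Isl1, a LIM homeodomain gene that acts upstream in the hindlimb field, measured 23.9, 21.4 and 22.6 RPKM in KO and 14.8, 14.9 and 15.4 RPKM in WT. The lowest KO library lay well over the highest WT library. The log2 fold change was 0.59 ± 0.092 (SE, n = 3 each) and passed with DESeq2 (adjusted p = 0.000655) but not with edgeR (adjusted p = 0.296), the smallest adjusted p among genes higher in KO. Isl1 also marks motor neurons. Of the 13 genes on a list of motor and sensory neurons, 9 could be tested and 8 of those had positive fold changes, with a median of 0.42 that ran from 0.092 to 0.94 without 1 library (lowest without KO replicate 3, highest without WT replicate 2). Their summed level was 37.8, 16.6 and 36.7 RPKM in KO and 23.2, 33.2 and 14.6 RPKM in WT, so it overlapped between the genotypes where Isl1 did not. The part of motor neurons in the Isl1 values was not tested.

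Tbx4, the T-box gene that Pitx1 promotes, measured 16.1, 19.8 and 19.3 RPKM in KO and 22.3, 31.1 and 19.9 RPKM in WT. The genotypes did not overlap, but the nearest libraries were 19.8 and 19.9 RPKM, and the log2 fold change of -0.41 ± 0.17 did not pass (SE, adjusted p = 1, edgeR). Fgf10, the growth factor of limb outgrowth, measured 2.56, 1.53 and 2.03 RPKM in KO and 3.51, 4.15 and 2.33 RPKM in WT, with overlap (log2 fold change -0.71 ± 0.26, SE). Tcf7, a transcription factor of the Wnt pathway, lay at 23.9, 24.9 and 23.1 RPKM in KO and 27.5, 35.7 and 29.5 RPKM in WT, without overlap. In all 3 of these genes WT replicate 2 was the highest library. Fgfr2, a receptor for Fgf10, lay at 30.4 to 30.8 RPKM in KO and 24.7 to 28.4 RPKM in WT. Gdf11, a secreted signal that sets the axial position of the hindlimb in the mouse, lay at 16.3 to 18.5 RPKM in KO and 12.6 to 15.3 RPKM in WT. Neither gene passed. Hand2 (log2 fold change -0.19), Lef1 (-0.16) and Sall4 (0.089) each had their highest KO value in replicate 2 and their highest WT value in replicate 3. Sall4, for example, measured 24.1, 39.5 and 21.4 RPKM in KO and 23.7, 18.5 and 39.1 RPKM in WT. The forelimb gene Tbx5 was low in both, at 0.184 to 0.581 RPKM in KO and 0.420 to 0.549 RPKM in WT.

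Promoters of a pair of these regulators and of Zfp429 are shown because Pitx1 binds the bicoid-type motif TAATCC, whose letters on the other strand read GGATTA. The sequences are from RefSeq (GRCm38.p6), 250 bases before to 50 bases after the start of the gene, written 5′ to 3′ along the strand of the gene. Capitals mark the motif, searched on both strands.
Isl1 promoter, chr13:116309639-116309938, minus strand: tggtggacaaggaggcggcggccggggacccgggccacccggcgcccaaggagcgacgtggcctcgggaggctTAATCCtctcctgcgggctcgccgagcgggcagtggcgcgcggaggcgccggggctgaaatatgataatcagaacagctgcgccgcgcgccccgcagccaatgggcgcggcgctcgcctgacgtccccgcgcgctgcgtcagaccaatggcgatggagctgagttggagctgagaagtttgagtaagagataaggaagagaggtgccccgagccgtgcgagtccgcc
Tbx4 promoter, chr11:85896515-85896814, plus strand: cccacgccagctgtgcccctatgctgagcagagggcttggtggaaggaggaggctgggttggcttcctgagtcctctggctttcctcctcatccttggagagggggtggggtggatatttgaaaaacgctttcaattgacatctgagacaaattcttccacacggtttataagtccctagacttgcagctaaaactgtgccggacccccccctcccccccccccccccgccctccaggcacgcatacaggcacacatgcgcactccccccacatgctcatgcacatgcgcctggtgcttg
Zfp429 promoter, chr13:67399718-67400017, minus strand: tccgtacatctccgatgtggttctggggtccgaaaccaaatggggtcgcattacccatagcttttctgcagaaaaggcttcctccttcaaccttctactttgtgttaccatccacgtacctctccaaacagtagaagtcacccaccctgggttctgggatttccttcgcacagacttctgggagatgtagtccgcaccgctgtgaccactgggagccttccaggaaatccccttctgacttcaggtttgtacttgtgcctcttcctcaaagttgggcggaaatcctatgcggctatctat
Isl1 held 1 match, and neither Tbx4 nor Zfp429 held one. Of 32851 mouse promoters of the same length, 7.06% hold the motif. A match describes these letters and no more. No promoter of Pitx1, Gpr137b or Gpr137b-ps was printed.

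The share of genes with an unadjusted p under 0.05 was highest on chromosome 13, which carries Pitx1. Of its 508 genes tested, 45 had an unadjusted p under 0.05, or 8.86%, with 17 higher in KO and 28 lower. On all other chromosomes together the share was 3.91%, and among the 19 others with at least 100 genes tested it ran from 1.83% to 6.5%. Genotypes did not overlap for 75 genes of chromosome 13, or 14.8%, and for 9.07% of genes elsewhere. DESeq2 called 19 genes in all, 8 higher and 11 lower in KO, which is 0.131% of the 14520 it tested. Of these 19, 8 lie on chromosome 13: Pitx1, Zfp429, Gpr137b-ps, Gpr137b, Isl1, Amph, Cxcl14 and Tubb2a. The chromosome and gene order were taken from the RefSeq table, since the files give no position. No test of the difference between chromosomes was made.

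Along the chromosome, Cxcl14 was the 3rd tested gene from Pitx1 and the others of the 8 farther away. Of the 10 tested genes on each side of Pitx1, 1 of 20 had an unadjusted p under 0.05 (5%), and of the 100 on each side 19 of 200 did (9.5%). The share was 4.11% over all genes tested and 8.86% over the whole chromosome. Gpr137b-ps and Gpr137b were the 208th and the 207th tested gene to one side, Amph the 190th and Tubb2a the 127th. To the other side Zfp429 was the 64th, Isl1 the 263rd and Fgf10 the 267th. Cxcl14, a chemokine gene, measured 22.8, 14.1 and 27.0 RPKM in KO and 10.1, 9.58 and 7.08 RPKM in WT, with no overlap (log2 fold change 1.25 ± 0.24, SE). It passed with DESeq2 (adjusted p = 7.65e-05) but not with edgeR (adjusted p = 0.636). Amph, which encodes the endocytic protein amphiphysin of nerve terminals, measured 1.53, 1.46 and 0.814 RPKM in KO and 4.72, 3.42 and 6.93 RPKM in WT (log2 fold change -1.98 ± 0.32, SE). Tubb2a, a beta-tubulin gene, measured 14.4, 16.4 and 14.9 RPKM in KO and 25.5, 36.3 and 24.7 RPKM in WT. Neither overlapped between the genotypes and neither passed with edgeR (adjusted p = 0.343 for Amph and 0.403 for Tubb2a). Of the words of Tubb2a 49.6% occur in other genes, most in Tubb2b, so its values are uncertain. The BMP antagonist gene Fst (7.11 to 8.24 RPKM in KO, 8.85 to 14.5 RPKM in WT) and the cartilage link protein gene Hapln1 (15.7 to 22.3 RPKM in KO, 23.6 to 35.6 RPKM in WT) also lie on this chromosome. Neither of these passed.

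**Figure D2:**
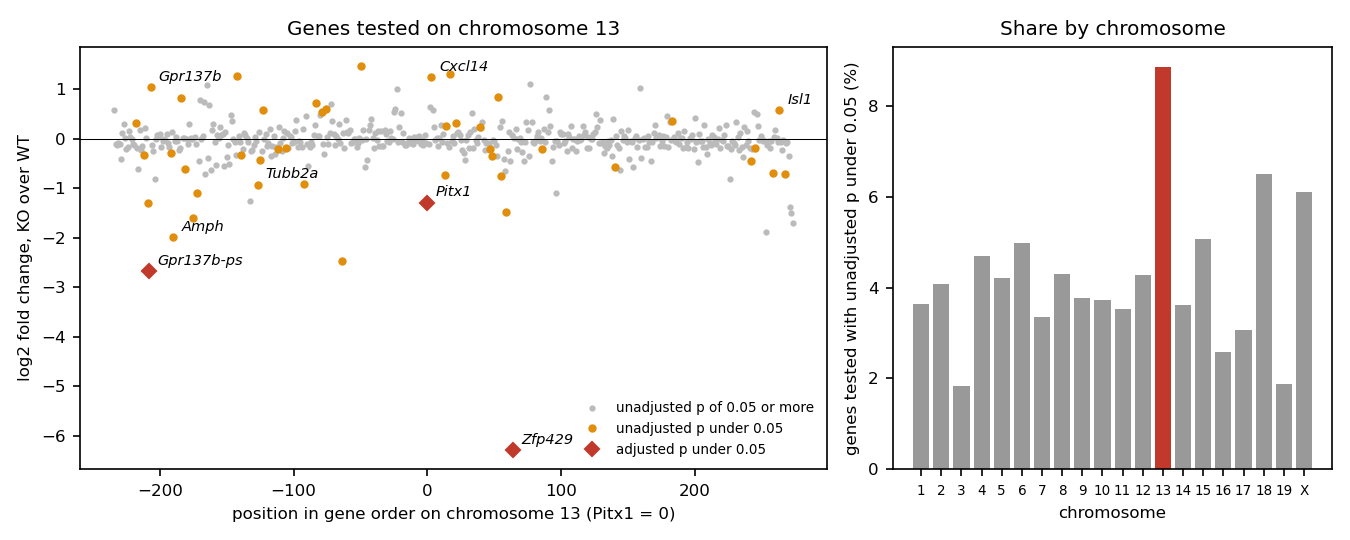
Left, log2 fold change of KO over WT for the 508 genes tested on chromosome 13, placed by gene order with Pitx1 at 0. Right, percent of genes tested with an unadjusted p under 0.05 on each chromosome, with chromosome 13 in red at 8.86%.

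The other 11 genes that DESeq2 called lie elsewhere, and none passed with edgeR. Lum, which encodes the matrix proteoglycan lumican, measured 2.36, 2.12 and 3.43 RPKM in KO and 8.10, 7.89 and 6.69 RPKM in WT. Its log2 fold change was -1.53 ± 0.22 (SE, adjusted p = 0.167, edgeR). Col1a2, a chain of type I collagen, lay at 21.8 to 27.7 RPKM in KO and 31.3 to 38.9 RPKM in WT, while the membrane collagen Col23a1 lay at 13.6 to 20.0 RPKM in KO and 6.88 to 10.9 RPKM in WT. Cbl, a ubiquitin ligase that acts on growth factor receptors, lay at 4.40 to 6.79 RPKM in KO and 8.71 to 9.99 RPKM in WT. Dcaf12l1, Nfam1 and Trappc5 were lower in KO as well, with log2 fold changes of -1.35, -1.22 and -0.54. Lrrn3, a leucine-rich repeat gene of neurons, measured 4.44, 5.33 and 4.41 RPKM in KO and 2.59, 2.12 and 1.54 RPKM in WT. Pla2g4b, a phospholipase gene, measured 1.85, 1.92 and 1.88 RPKM in KO and 0.287, 0.469 and 0.793 RPKM in WT. Moap1 and Sbk1 were the others higher in KO, with log2 fold changes of 1.30 and 0.40. In all 11 genes the genotypes did not overlap. Since DESeq2 picked them from the same 6 libraries, this separation comes with the choice and adds no support.

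Hox genes mark position along the trunk and limb axes, and the 5′ members of groups 10 to 13 pattern the posterior trunk and the limb. Fold changes were positive for all 10 tested genes of groups 10 to 13 (median log2 fold change 0.45, or 0.22 without KO replicate 2 and WT replicate 3), against 48.2% positive and a median of -0.0063 over all genes. For 5 of the 10 every KO library lay over every WT library, against 4.7% of all genes tested, and none passed the test. Their summed level, with 2 more that were too low to test, was 214.5, 264.6 and 220.8 RPKM in KO and 194.1, 186.0 and 190.0 RPKM in WT. Hoxd11 measured 13.9, 19.4 and 12.9 RPKM in KO and 11.3, 9.07 and 10.2 RPKM in WT (log2 fold change 0.58 ± 0.16, SE). Hoxa13 measured 4.84, 6.69 and 6.72 RPKM in KO and 2.69, 3.19 and 4.71 RPKM in WT (log2 fold change 0.78 ± 0.27, SE). Hoxa10 lay at 36.9 to 46.5 RPKM in KO and 34.6 to 36.1 RPKM in WT, and Hoxd12 at 5.50 to 9.24 RPKM in KO and 0.608 to 4.46 RPKM in WT. The lowest Hoxd12 value was that of WT replicate 3. The remaining gene without overlap, Hoxc13, was under 0.4 RPKM in every library. Of the words of Hoxd11 10% occur in other genes, and since the strand setting of the counting is not given, its values are uncertain.

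In groups 6 to 9 fold changes were positive for 4 of 12 genes, and the median was -0.071. Hoxc8 lay at 9.34, 10.9 and 8.32 RPKM in KO and 17.8, 10.2 and 21.4 RPKM in WT, with overlap through WT replicate 2 (log2 fold change -0.79 ± 0.25, SE). Hoxb9 lay at 64.5, 49.5 and 60.2 RPKM in KO and 79.6, 63.8 and 73.2 RPKM in WT (log2 fold change -0.32 ± 0.12, SE). Hoxc9 lay at 20.6 to 22.1 RPKM in KO and 22.0 to 33.1 RPKM in WT. In groups 1 to 5 they were positive for 11 of 15 genes (median 0.12, but -0.058 without WT replicate 1, -0.031 without WT replicate 2 and 0.36 without WT replicate 3), and Hoxa2 was the one without overlap, at 8.84 to 9.45 RPKM in KO and 5.32 to 8.01 RPKM in WT. No Hox gene passed the test.

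**Figure D3:**
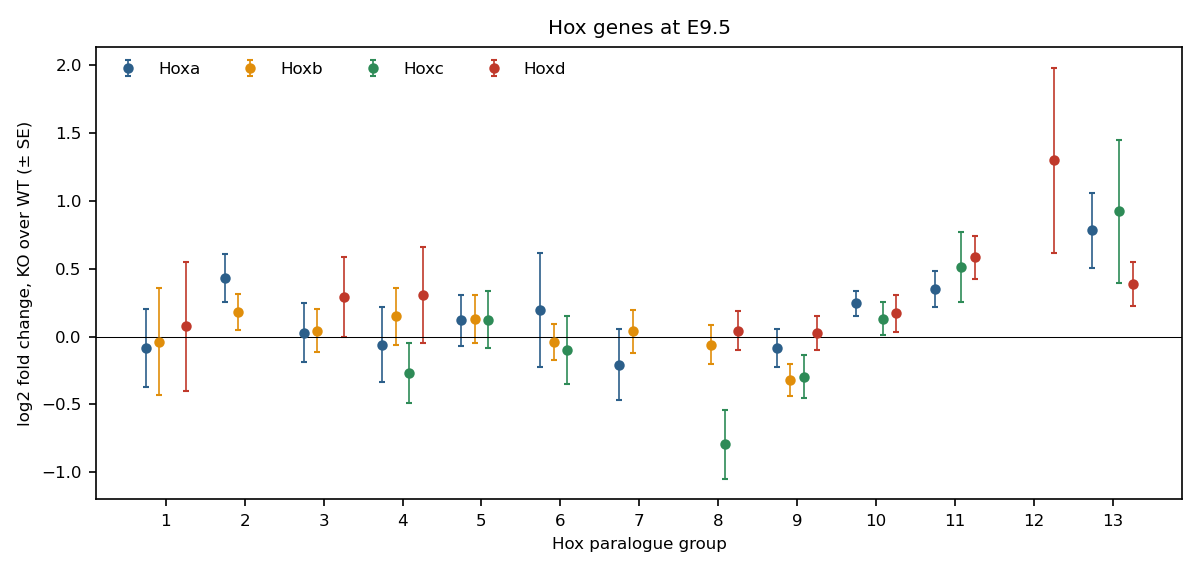
Log2 fold change of KO over WT (vertical axis, bars ± SE) of the Hox genes tested at E9.5, by paralogue group from 1 at the anterior end to 13 at the posterior end and coloured by cluster. All 10 genes of groups 10 to 13 lie over 0, from 0.13 for Hoxc10 to 1.30 for Hoxd12.

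Genes of the early limb bud mesenchyme gave a median log2 fold change of 0.043 over 29 genes, 15 of them positive, and none passed. Of the 29, 2 that were higher in KO and 1 that was lower did not overlap, against 9.29% of all genes tested. Dusp6, a phosphatase induced by FGF signals, measured 45.0, 51.4 and 47.7 RPKM in KO and 56.4, 87.0 and 62.6 RPKM in WT, with no overlap (log2 fold change -0.52 ± 0.15, SE). Tbx3, a T-box gene of the limb margins, measured 8.63, 7.76 and 8.78 RPKM in KO and 6.72, 6.66 and 6.56 RPKM in WT, and did not overlap (log2 fold change 0.34 ± 0.10, SE). Osr2 lay at 1.30 to 1.88 RPKM in KO and 0.813 to 1.06 RPKM in WT. The limb bud genes Lhx2, Lhx9, Tbx15 and Shox2 varied far more within a genotype than between them. Lhx2 measured 2.33, 0.442 and 5.70 RPKM in KO and 1.98, 15.8 and 0.677 RPKM in WT, and in all 4 genes the highest library was WT replicate 2 and the highest KO library was KO replicate 3.

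In the hedgehog and posterior limb group, fold changes were positive for 11 of 20 genes (median 0.023). Shh, the signal of the posterior limb margin and also of notochord and floor plate, measured 11.7, 8.86 and 9.41 RPKM in KO and 8.24, 11.4 and 9.15 RPKM in WT. Its receptor and target Ptch1 lay at 33.1 to 37.6 RPKM in KO and 28.9 to 40.4 RPKM in WT. Both overlapped fully. Of 15 tested genes of the apical ridge and ventral ectoderm, 6 were positive, with a median of -0.12 and no gene without overlap. Fgf8, a ridge signal also made in the tail bud, measured 3.97, 5.45 and 4.54 RPKM in KO and 4.11, 8.84 and 5.80 RPKM in WT. En1, of the ventral ectoderm, lay at 0.293 to 0.482 RPKM in KO and 0.358 to 0.931 RPKM in WT, and Fgf4 and Dlx6 were too low to test.

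The BMP pathway gave 12 positive fold changes of 21, with a median of 0.062, and Fst was its one gene without overlap. Of 14 tested genes of the retinoic acid pathway 11 were positive, with a median of 0.15 and 1 gene without overlap, the receptor gene Rxrb. Aldh1a2, which makes retinoic acid in the trunk, measured 121, 87.0 and 114.6 RPKM in KO and 86.3, 95.3 and 49.8 RPKM in WT. The lowest library of each genotype was again KO replicate 2 and WT replicate 3.

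Most trunk markers set that pair of libraries apart from the other 4. The 28 genes of the tail bud and presomitic mesoderm summed to 234.5, 485.0 and 192.1 RPKM in KO and 276.6, 185.7 and 543.8 RPKM in WT, with KO replicate 2 and WT replicate 3 on top. T, which encodes the Brachyury factor of the tail bud, measured 5.36, 16.9 and 4.48 RPKM in KO and 7.50, 2.66 and 21.3 RPKM in WT. Msgn1, of the presomitic mesoderm, measured 1.08, 29.2 and 0.691 RPKM in KO and 5.78, 0.367 and 35.9 RPKM in WT. Neural tube and neuron genes were lowest in that pair, with sums of 201.8, 93.5 and 206.4 RPKM in KO and 138.7, 165.0 and 88.2 RPKM in WT. Their fold changes were positive for 22 of 23 tested genes, and no gene was without overlap. Their median of 0.42 became 0.13 without WT replicate 3 and 0.84 without KO replicate 2, and 0.49 without both. Gut endoderm genes summed to 213.7, 378.7 and 176.1 RPKM in KO and 279.9, 224.3 and 386.6 RPKM in WT, and surface ectoderm genes to 213.9 to 378.7 RPKM in KO and 260.6 to 367.2 RPKM in WT. In bulk tissue, fewer cells of a type and less RNA per cell cannot be told apart. KO replicate 2 and WT replicate 3 were left out only after their values were seen, so calls made without them are no separate evidence. Without these 2 libraries, 6 genes passed the test, 1 higher and 5 lower in KO, and the call of Zfp429 was lost (adjusted p = 0.0616, edgeR). Pitx1 and Gpr137b-ps were among the 6, with Acta2 (log2 fold change -1.37, adjusted p = 0.00871, edgeR), Cbl (-1.06) and, higher in KO, Cxcl14 (1.33). For Acta2 and Cxcl14, KO replicate 2 was the KO library nearest to WT, so leaving it out favours their calls. The part of tissue make-up in any other result was not tested.

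**Figure D4:**
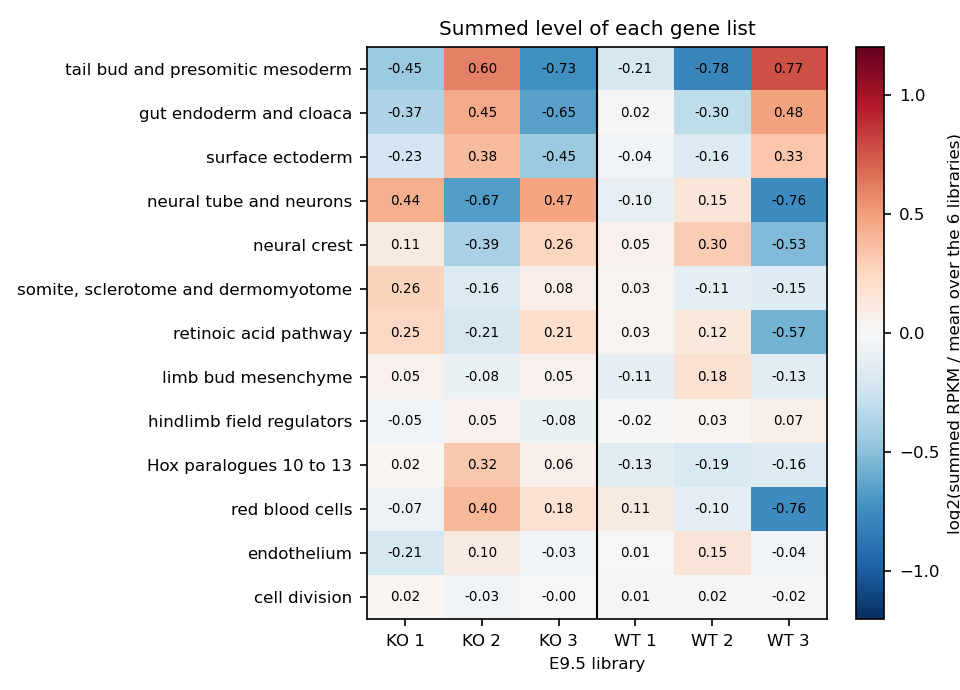
Summed RPKM of each gene list in each E9.5 library, as the log2 ratio to the mean of all 6 libraries, with KO left and WT right of the line. KO replicate 2 and WT replicate 3 share the high tail bud sums (485.0 and 543.8 RPKM) and the low neural sums (93.5 and 88.2 RPKM).

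Somite genes gave 15 positive fold changes of 19 tested, with a median of 0.14 that ran from 0.074 without KO replicate 3 to 0.40 without KO replicate 2. Tcf15, a somite factor also called paraxis, measured 93.2, 68.8 and 65.9 RPKM in KO and 52.1, 51.3 and 62.8 RPKM in WT, and Eya1 lay at 10.3 to 12.49 RPKM in KO and 8.95 to 9.88 RPKM in WT. These were the 2 genes without overlap among the 19 tested, against 9.29% of all genes tested. Pax3, of the dermomyotome and dorsal neural tube, lay at 14.5 to 15.9 RPKM in KO and 11.8 to 15.7 RPKM in WT. In the intermediate mesoderm, which forms the kidney, Wnt9b measured 1.51, 1.11 and 1.47 RPKM in KO and 0.874, 0.879 and 0.479 RPKM in WT. Gdnf, the ligand that starts kidney budding, measured 2.73, 1.59 and 2.001 RPKM in KO and 1.36, 1.36 and 1.59 RPKM in WT. The other 11 genes of the intermediate mesoderm overlapped, and the 13 had a median of 0.012. Axin2, a target of Wnt signals, lay at 23.0 to 26.7 RPKM in KO and 19.6 to 22.1 RPKM in WT. None of these passed.

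Many muscle and cartilage genes were too low to test. Of 23 muscle differentiation genes 8 were too low to test, the myogenic factor Myod1 among them at no more than 0.0927 RPKM, and of 16 cartilage genes 4 were, among them Acan and Gdf5. Fold changes of the tested muscle genes were positive for 4 of 15, with a median of -0.21 that became 0.019 without WT replicate 3 and -0.42 without KO replicate 2. Des, which encodes desmin, measured 14.7 RPKM in each KO library and 10.02, 12.4 and 10.8 RPKM in WT (log2 fold change 0.40 ± 0.11, SE). Acta2, a smooth muscle actin also made in early muscle, measured 25.5, 80.3 and 33.6 RPKM in KO and 77.8, 74.7 and 72.8 RPKM in WT, so KO replicate 2 lay with the WT libraries. Acta2 did not pass over the 6 libraries (log2 fold change -0.70 ± 0.45, SE). Without KO replicate 2, the KO library that lay with WT, it passed (-1.35, adjusted p = 0.0257, edgeR). Without any other 1 library its log2 fold change was -0.72 to -0.40 and did not pass. The cartilage regulator Sox9, also a neural crest and notochord gene, measured 10.2, 3.67 and 10.9 RPKM in KO and 7.85, 9.49 and 2.79 RPKM in WT. Col2a1 lay at 21.7 to 33.7 RPKM in KO and 21.6 to 30.1 RPKM in WT, so neither of these separated the genotypes.

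Blood and vessel genes had fold changes of mostly opposite sign, and no gene passed. Of the red blood cell list, every one of the 17 tested genes had a positive value. The genotypes did not overlap for 3 of them, all higher in KO, against 4.7% of all genes tested. The median log2 fold change was 0.36, or 0.083 without KO replicate 2 and WT replicate 3 (0.22 to 0.49 without 1 library). Hba-a1, an alpha-globin gene, measured 1152, 1478 and 1477 RPKM in KO and 1092, 874 and 629 RPKM in WT, and its near-identical copy Hba-a2 was listed at or near 0, so its values are uncertain. Klf1, a factor of red cell formation, lay at 9.56 to 15.8 RPKM in KO and 8.05 to 9.05 RPKM in WT. Epor, the erythropoietin receptor, lay at 6.68 to 8.05 RPKM in KO and 3.76 to 6.61 RPKM in WT. The summed level overlapped, with 22792, 31556 and 27200 RPKM in KO and 25795, 22299 and 14167 RPKM in WT, and WT replicate 3 was the lowest. The endothelial list held 16 negative values among 20 genes (median log2 fold change -0.15, or -0.024 without KO replicate 1, -0.24 without KO replicate 2 and -0.27 without both KO replicate 2 and WT replicate 3). Plvap (40.2 to 50.1 RPKM in KO, 51.9 to 53.7 RPKM in WT), Apln (4.34 to 5.91 RPKM in KO, 6.69 to 6.95 RPKM in WT) and the vessel receptor Tek (5.29 to 8.57 RPKM in KO, 8.75 to 8.94 RPKM in WT) did not overlap. Pecam1, a general endothelial marker, measured 12.7, 18.8 and 15.1 RPKM in KO and 17.7, 18.1 and 16.4 RPKM in WT and overlapped.

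Among the remaining groups, cell division genes had a median of -0.013 over 20 genes, with summed levels of 2256 to 2336 RPKM in KO and 2277 to 2327 RPKM in WT. Targets of p53 had a median of -0.11, with 3 of 14 positive; the cell cycle inhibitor Cdkn1a lay at 4.13 to 5.47 RPKM in KO and 5.67 to 6.91 RPKM in WT. Germ cell genes had 2 of 7 positive, and Dppa3, a gene of primordial germ cells, measured 0.0798, 0.441 and 0.102 RPKM in KO and 1.22, 1.45 and 1.43 RPKM in WT. Macrophage genes were near the limit, with 10 of 19 too low to test. Hypoxia and glycolysis genes had a median of -0.048 over 16 tested, with no gene without overlap, and immediate early and heat shock genes -0.10 over 11. None of these genes passed.

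Effects at E9.5 were set beside those in the E11.5 hindlimb, in a fit of 12 libraries with a test of the difference. The stages were normalised in separate tables, and the later tissue lacks the trunk. In that fit 254 genes passed at E11.5, or 1.65% of 15357. The difference between the stages passed for 4 genes with edgeR, or 0.026%, and for 358 with DESeq2, or 2.54%, the 4 among them. Without 1 library edgeR gave 0 to 9 such genes, 0 of them without E9.5 KO replicate 1, E11.5 WT replicate 1 or E11.5 KO replicate 3. The 4 do not include Pitx1, which measured 23.2, 17.3 and 20.0 RPKM in KO and 138.5, 111.6 and 109.0 RPKM in WT at E11.5. Its effect at E9.5 was smaller by 1.29 ± 0.20 on the log2 scale (SE, adjusted p = 0.0553, edgeR), and that difference passed without E9.5 KO replicate 3 (1.40, adjusted p = 0.0303) or E11.5 KO replicate 1 (1.40, adjusted p = 0.0450). Tbx4 measured 20.8, 22.0 and 23.2 RPKM in KO and 69.2, 58.4 and 63.0 RPKM in WT at E11.5, where it fell in KO (log2 fold change -1.53 ± 0.14, SE, adjusted p = 0.000278, edgeR). For its effect the difference between stages, 1.12 ± 0.20 (SE), did not pass (adjusted p = 0.101, edgeR) but did without E9.5 WT replicate 2 (1.33, adjusted p = 0.00777, edgeR). With DESeq2 the difference passed for Tbx4 (1.13, adjusted p = 0.0001) and for Pitx1 (1.29, adjusted p = 1.93e-06). That of Pitx1 also passed with edgeR without the filter (adjusted p = 0.0492). Fgf10 had a log2 fold change of 0.46 ± 0.20 at E11.5 (SE), and its difference of -1.16 ± 0.29 did not pass (SE, adjusted p = 0.139, edgeR).

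Levels of the chromosome 13 genes named above were also compared at the later stages, in separate libraries. Zfp429 measured 0.110, 1.45 and 0.221 RPKM in KO and 2.97, 3.51 and 3.29 RPKM in WT at E11.5. Gpr137b-ps measured 0.740, 2.94 and 0.754 RPKM in KO and 4.65, 3.02 and 5.01 RPKM in WT. In both genes KO replicate 2 of E11.5 was the highest KO library, yet it stayed under every WT library, though only just for Gpr137b-ps. Neither gene passed at E11.5 (adjusted p = 0.104 for Zfp429 and 0.118 for Gpr137b-ps, edgeR). Gpr137b measured 6.28, 4.21 and 6.53 RPKM in KO and 2.79, 3.78 and 2.24 RPKM in WT at E11.5 (log2 fold change 0.95 ± 0.22, SE, adjusted p = 0.0495, edgeR). Fragments of the pair again summed to like values, 21.0, 20.4 and 21.1 in KO and 22.4, 20.7 and 21.3 in WT on the CPM scale. Amph had a log2 fold change of -1.60 ± 0.47 and Tubb2a of -0.56 ± 0.20 at E11.5 (SE), and neither passed. Isl1 and Cxcl14 lay near 0, with -0.17 ± 0.41 and 0.012 ± 0.24 (SE). None of these 7 genes had a difference between the stages that passed with edgeR (adjusted p from 0.169 to 0.917). With DESeq2 the difference of Cxcl14 passed (1.25, adjusted p = 0.01) and that of Gpr137b-ps did not (adjusted p = 0.312).

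At E12.5 the same genes were set side by side without a test. Zfp429 measured 0.0458, 0.0856 and 0.0907 RPKM in KO and 3.75, 3.25 and 4.01 RPKM in WT. Gpr137b-ps measured 2.09, 2.39 and 2.29 RPKM in KO and 1.84, 3.13 and 3.55 RPKM in WT, and Gpr137b 3.68, 3.34 and 3.16 RPKM in KO and 3.46, 2.04 and 1.77 RPKM in WT. Both of that pair overlapped between the genotypes at E12.5, unlike at the earlier stages, while Zfp429 did not overlap. Amph lay at 0.363 to 0.563 RPKM in KO and 0.600 to 1.002 RPKM in WT, and Tubb2a at 19.3 to 24.0 RPKM in KO and 26.7 to 34.1 RPKM in WT, without overlap. Isl1 (2.98 to 3.08 RPKM in KO, 1.73 to 3.93 RPKM in WT) and Cxcl14 (163 to 207 RPKM in KO, 171 to 262 RPKM in WT) overlapped.

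**Figure D5:**
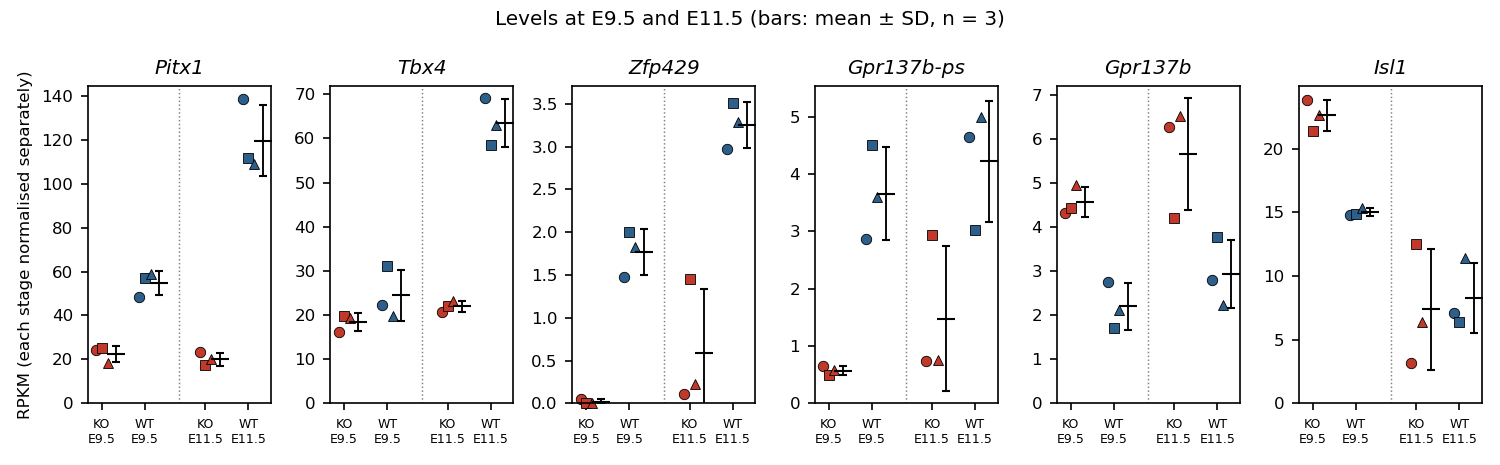
Level of 6 genes in RPKM (vertical axes, from 0) at E9.5 and E11.5, with KO left of WT at each stage, symbols for replicates and bars for the mean ± SD of 3 libraries. The stages were normalised separately. At E11.5 the KO library with 1.45 RPKM of Zfp429 is also the one with 2.94 RPKM of Gpr137b-ps.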

How the data were processed

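RNA sequencing libraries of the E9.5 hindlimb field were analysed as the authors deposited them. The labels' protocols name a mirVana kit for RNA, a TruSeq Stranded mRNA kit for libraries and a NextSeq sequencer. The submitters' processing notes name FastQC, TopHat2, Cuffdiff and the mouse build mm9; versions, annotation and strand setting were not given in the sources used here. The deposited table of each stage gives, per gene and library, Cuffdiff's estimated counts (raw fragments, not always whole) and RPKM values that the authors normalised per kilobase and library size. Cuffdiff numbers replicates from 0, taken in order as replicates 1 to 3.

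Of 23927 names per table, 8 genes at E9.5 that Cuffdiff failed to estimate in at least 1 library, among them Eef1a1, and 2 names shared by a pair of genes were dropped. Fragments were rounded (1.73% of values were not whole) and tested with edgeR 4.0.16 in R 4.3.3 with filterByExpr, TMM scaling and a robust quasi-likelihood fit on the 6 E9.5 libraries. P-values were adjusted by Benjamini-Hochberg over all genes tested, at a threshold of 0.05. Standard errors were derived from the F statistic. The difference of the KO effect, E9.5 minus E11.5, was an interaction contrast over 12 libraries. Every replicate pair differed by more than sampling noise (smallest chi-square over its degrees of freedom 7.89). Positions were to come from the tables, which give none, so chromosome and gene order came from the RefSeq table (GRCm38.p6), found for 13740 of the genes tested. Shared sequence was counted as words of 50 bases in GENCODE vM21 transcripts, on both strands. Intervals cover counting error only.

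The 32 gene lists, which had no test, and the members were chosen with earlier results of these data known. Named genes were a fixed set, genes past the threshold, the 10 with the smallest p per direction among those with a mean of 1 RPKM and no overlap, up to 4 per list, Hox genes, DESeq2 calls and differences between stages. Other genes named, such as Lhx9, Tbx15, Fgfr2, Msgn1, Ptch1, Pecam1, Hoxc13 and Xist, were chosen after their values were seen. The fits were repeated with RLE scaling, DESeq2 1.42.0, limma 3.58.1 on log2(RPKM + 1) or log2(RPKM + 0.1), other filters, no robust step, equal depth, all 12 libraries, a replicate block and leaving out libraries. On simulated counts, 92% of 50 genes changed by 2-fold were recovered among 13798 for E9.5, and 52% of 50 changed by 1.5-fold, with 6 false calls over all sizes. For the difference between stages, 86% and 26% of 50 such genes were recovered among 15357, with 7 false calls. The simulated spread followed the trend over expression level, not the spread of each gene, and tissue make-up did not vary between libraries. Genes of the lowest levels were not among those changed. These shares therefore do not give the recovery in the real libraries.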

Additional observations from a re-analysis of the deposited data

Results flagged for a closer look

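The effect of the knockout differed between E9.5 and the E11.5 hindlimb for 4 genes, by the test of the difference itself over 12 libraries (edgeR). All 4 tests gave an adjusted p of 0.0502 without the robust step. Sdc2, which encodes the cell-surface proteoglycan syndecan 2, measured 7.77, 8.95 and 8.49 RPKM in KO and 11.7, 11.1 and 10.1 RPKM in WT at E9.5. At E11.5 it measured 39.3, 33.9 and 35.5 RPKM in KO and 21.5, 25.02 and 24.2 RPKM in WT, and the difference of the log2 fold changes, E9.5 minus E11.5, was -1.005 ± 0.13 (SE, adjusted p = 0.0322, edgeR). Rprm, the p53-induced cell cycle gene reprimo, measured 32.2, 35.4 and 29.1 RPKM in KO and 31.0, 26.4 and 32.7 RPKM in WT at E9.5. At E11.5 it measured 11.9, 9.64 and 9.18 RPKM in KO and 25.8, 30.9 and 20.7 RPKM in WT, with a difference of 1.43 ± 0.21 (SE, adjusted p = 0.0322, edgeR). The glycolytic enzyme gene Eno1 had 75, 62 and 75 fragments in KO and 324, 62 and 100 in WT at E9.5, against none in KO and 37, 62 and 25 in WT at E11.5. In levels it measured 2.34, 2.15 and 2.99 RPKM in KO and 4.83, 1.77 and 2.43 RPKM in WT at E9.5, with overlap. Its difference of 7.85 depends on the prior count, and 26% of its 50-base words occur in other genes, so its values are uncertain. The microRNA gene Mir703 measured 1277, 1263 and 1502 RPKM in KO and 1959, 1846 and 1721 RPKM in WT at E9.5. At E11.5 it measured 9227, 8523 and 8698 RPKM in KO and 3721, 4364 and 4167 RPKM in WT, with a difference of -1.57. Mir703 had 85, 77 and 80 fragments in KO and 277, 137 and 149 in WT at E9.5. At E11.5 it had 764, 685 and 523 fragments in KO and 202, 252 and 223 in WT. The RPKM given per fragment thus differed between the stages for this gene, so its RPKM levels are uncertain and not comparable between stages. Leaving out 1 of the 12 libraries ended the call in 9 fits for Mir703, 7 for Rprm, 4 for Sdc2 and 4 for Eno1. Groups of 3 libraries were too small to test for a library far from the others.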

How the results depend on the processing

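The 3 genes called at E9.5 were all called again by edgeR with RLE scaling (3 genes), no filter (4) and thinned libraries (3). Without the robust step 2 were, since Zfp429 missed (adjusted p = 0.0586, edgeR), and with limma on log2(RPKM + 0.1) 2 were, since Pitx1 missed (adjusted p = 0.056). DESeq2 called 19 genes, the 3 among them. A mean of 5 RPKM in a genotype gave 1, Pitx1 (adjusted p = 0.0349, edgeR). Zfp429 and Gpr137b-ps lay under that filter and were not tested. The fit of 12 libraries also gave Pitx1 alone (adjusted p = 0.00793, edgeR). With limma on log2(RPKM + 1) the 1 gene was Zfp429 (adjusted p = 0.0211), while Pitx1 (adjusted p = 0.0611) and Gpr137b-ps (adjusted p = 0.0553) missed. Without 1 library edgeR called 0 to 2 genes. It called 0 without WT replicate 1, 2 or 3, KO replicate 1 or KO replicate 3, though 304 to 717 genes then had an unadjusted p under 0.05. Leaving out both KO replicate 2 and WT replicate 3, chosen after seeing the data, gave 6. The difference between stages passed for 4 genes with edgeR and with RLE, 358 with DESeq2, 5 without the filter, 2 with a mean of 5 RPKM, 8 and 6 with limma at the larger and the smaller pseudocount, and 1 at equal depth. It passed for 0 without the robust step (edgeR), where 2367 genes had an unadjusted p under 0.05, and for 0 to 9 without 1 library.

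Same-numbered KO and WT libraries did not deviate together (correlations 0.021, -0.392 and -0.374). Nothing in the labels says that the numbers pair the samples, and these correlations cannot settle whether they do. With the replicate number as a block edgeR called 0 genes at E9.5, with 340 at an unadjusted p under 0.05, and for the difference between stages 1, which is none of the 4 genes called without the block. Under the block Lhx9 (0.68), Shox2 (0.21) and Tbx15 (0.35) changed sign, as did Shox2 with limma on log2(RPKM + 0.1) (0.15) and the Zfp429 difference with limma on log2(RPKM + 1) (0.072). The sign also depended on single libraries for some genes that did not pass. Log2 fold changes without 1 library ran from -0.34 to 0.11 for Lef1, -2.13 to 1.047 for Lhx2, -2.39 to 2.39 for Lhx9, -3.94 to 1.66 for Msgn1, -0.082 to 0.16 for Ptch1 and -0.23 to 0.46 for Sall4. They ran from -0.073 to 0.20 for Shh, -1.0003 to 1.25 for Shox2, -0.076 to 0.65 for Sox9, -1.09 to 0.79 for T and -2.40 to 2.11 for Tbx15. The differences between stages ran from -0.13 to 0.30 for Gpr137b and -0.71 to 0.0064 for Amph. List medians without 1 library ran from 0.090 to 0.30 for the retinoic acid pathway, -0.27 to 0.013 for the apical ridge, -0.17 to -0.030 for p53 targets and -0.13 to 0.094 for hindlimb field genes. The cause of these changes was not tested.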
